A study of Mus musculus with 14 samples.

Results

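The mitochondrial respiratory chain of mouse liver was followed through its nuclear genes in bulk RNA-seq libraries. The genes were taken by symbol: Nduf genes of the classes a, b, c, s and v, Sdha to Sdhd, the Uqcr genes, the Cox genes numbered 4 to 8 and the Atp5 genes, with pseudogene symbols ending in -ps (3 of them) left out. The rule gave 97 of the 45706 genes of the deposited count table. Of these, 90 had at least 10 counts in at least 3 libraries and were tested among 15807 genes that met the same minimum. The 90 comprised 45 genes of complex I, 4 of complex II, 8 of complex III, 15 of complex IV and 18 of complex V. The 45 include Ndufb4c, whose symbol lacks -ps although it is annotated as a processed pseudogene.

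All libraries came from livers of male C57BL6/J mice that were 8 weeks of age at the start. The C18:1-leucine group (MASH OAL in the titles, 3 libraries) and the C18:1 group (MASH OA, 4 libraries) ate a MASH diet for 16 weeks and then, still on that diet, received the named compound for 6 weeks. The MASH group (3 libraries) ate the MASH diet without either compound, and the titles do not say whether these mice received the vehicle. The chow group (CD, 4 libraries) was kept on LabDiet chow. For the MASH and chow groups the labels give 16 weeks of diet and leave unsaid whether they were kept for the 6 further weeks, so a difference in age and time on diet cannot be told apart from the compounds in comparisons with them. C18:1 is a monounsaturated fatty acid with 18 carbons, and C18:1-leucine is that fatty acid joined to the amino acid leucine. MASH stands for metabolic dysfunction-associated steatohepatitis, in which a fatty liver becomes inflamed and scarred, here through the diet. It is not known whether the compounds were given at equal doses (not given in the sources used here). The labels number the libraries of a group but do not say that each is a separate mouse, so p-values measure the spread between these libraries, which may be partly technical.

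Complexes I to IV of the inner mitochondrial membrane pass electrons from NADH and succinate to oxygen and, except for complex II, pump protons, and complex V uses the proton gradient to make ATP. In hepatocytes this chain takes up the electrons of fatty acid oxidation and supplies ATP for gluconeogenesis and urea synthesis. Apart from complex II, which is wholly nuclear-encoded, each complex combines nuclear-encoded subunits with a few made from mitochondrial DNA, so that both genomes have to be expressed together.

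The promoters of these genes are known as targets of NRF-1, of the ETS factor GABPA, of YY1 and of the estrogen-related receptors. RefSeq promoter windows (GRCm38.p6, 250 bases before and 50 after the start of transcription) were found for 75 of the 90 genes, in 80 windows. Each window was searched on both strands for the NRF-1 core GCGCATGC, the GABPA core CCGGAAG, the YY1 core AAGATGGCG and the estrogen-related receptor motif AAGGTCA. The NRF-1 core was present in 15% of the 80 windows, against 2.71% of all 32851 mouse windows, and the GABPA core in 23.75%, against 8.86%. The YY1 core was present in 10%, against 1.4%, and the receptor motif in 11.25%, against 4.72%. At least 1 of the 4 was found in 37 windows (46.25%), against 16.44% of all windows. These are letter matches, and none of the files measures binding of a factor. Because the NRF-1 core and its complement overlap, 1 stretch can match on both strands. The 250 bases upstream of the start are shown for 1 gene of each complex with a match, with matches in capitals in either orientation. The genes shown are the complex I subunit gene Ndufa6 (chr15:82354292-82354541, minus strand), the complex II gene Sdhb (chr4:140961021-140961270, plus strand) and the complex III gene Uqcrh (chr4:116075071-116075320, minus strand). The others are Cox6a1 of complex IV (chr5:115348959-115349208, minus strand) and Atp5mg of complex V (chr9:44920743-44920992, minus strand). The RefSeq start lay within 250 bases of the GENCODE gene start for 67 of the 80 windows, among them these 5, but 1755 bases upstream of it for Atp5if1, whose window is not shown.
Ndufa6: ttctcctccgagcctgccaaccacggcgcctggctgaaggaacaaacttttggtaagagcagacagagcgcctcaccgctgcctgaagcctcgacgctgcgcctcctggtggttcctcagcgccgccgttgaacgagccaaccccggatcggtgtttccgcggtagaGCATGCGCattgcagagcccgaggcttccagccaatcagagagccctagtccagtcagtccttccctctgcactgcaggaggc
Sdhb: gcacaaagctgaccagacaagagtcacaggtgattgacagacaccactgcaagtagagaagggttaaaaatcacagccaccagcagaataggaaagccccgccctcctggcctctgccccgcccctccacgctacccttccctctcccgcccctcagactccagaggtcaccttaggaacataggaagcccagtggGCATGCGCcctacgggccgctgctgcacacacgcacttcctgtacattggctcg
Uqcrh: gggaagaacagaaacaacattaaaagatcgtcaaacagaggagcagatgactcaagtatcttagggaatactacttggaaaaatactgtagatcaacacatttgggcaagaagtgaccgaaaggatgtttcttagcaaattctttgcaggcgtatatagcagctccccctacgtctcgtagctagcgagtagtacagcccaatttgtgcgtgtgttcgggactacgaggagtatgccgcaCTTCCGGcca
Cox6a1: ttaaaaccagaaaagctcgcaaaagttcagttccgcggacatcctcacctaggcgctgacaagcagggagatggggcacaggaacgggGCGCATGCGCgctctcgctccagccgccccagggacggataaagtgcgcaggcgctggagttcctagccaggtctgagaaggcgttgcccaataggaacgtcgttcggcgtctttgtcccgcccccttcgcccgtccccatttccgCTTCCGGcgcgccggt
Atp5mg: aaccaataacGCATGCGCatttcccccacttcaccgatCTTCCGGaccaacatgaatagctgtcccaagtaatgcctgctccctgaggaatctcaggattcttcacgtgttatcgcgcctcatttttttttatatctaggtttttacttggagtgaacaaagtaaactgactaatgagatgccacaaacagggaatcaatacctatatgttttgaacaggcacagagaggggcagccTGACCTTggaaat

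Total counts ran between 33821874 and 51107248 per library, and no 2 libraries of a group agreed within counting error (chi-square of 27.42 to 173.89 for each gene). The treatment tag contradicts the title for 2 libraries: C18:1 replicate 1 is tagged as dietary only and C18:1-leucine replicate 1 as C18:1. Groups follow the titles here. Comparisons of the compounds with each other and with chow are also given without these libraries and with the groups of the tags. For the compounds against MASH, only the counts over all tested genes are given that way. Pancreatic markers (11 genes) added up to 981 CPM in replicate 2 of the C18:1-leucine group and to 221 CPM in replicate 2 of the chow group, and elsewhere to 3.73 to 7.68 CPM. CPM is the usual count relative to library size, here with the library size scaled by TMM, edgeR's trimmed mean factor. Hepatocyte markers (19 genes) summed to at least 56017.7 CPM in every library, none of them at 0.

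Respiratory chain transcripts were lower in MASH livers than in chow livers across all 5 complexes, relative to the bulk of other genes. By edgeR's quasi-likelihood test with p adjusted over all genes, 75 of the 90 fell and 1 rose, where 15% of all tested genes fell and 20.2% rose. The median log2 fold change over the 90 was -0.32 (0.007 over all genes), with 87 below 0. Every MASH library lay below every chow library for 78 of the 90, a separation shown by 17.7% of all genes. Summed over the 90 genes, the level was 11193, 10679 and 10823 CPM in MASH livers, against 13176, 12805, 14281 and 14140.5 CPM in chow livers. The MASH sums all lay below the lowest chow sum.

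This fall depends on TMM scaling. The TMM factor was 0.86 to 0.89 in chow libraries and 1.02 to 1.12 in MASH libraries. As a plain share of all counts of a library, the 90 genes took 1.14, 1.10 and 1.22% in MASH livers, against 1.15, 1.14, 1.26 and 1.21% in chow livers, and the groups overlap. With library totals and no TMM factor, an alternative chosen after seeing the data, 7 of the 90 fell and 4 rose. Their median log2 fold change was then -0.04 with 66 of the 90 below 0, while the median of all genes moved to 0.28. The 90 genes therefore lay 0.32 below the median gene on either scale, and they kept nearly their share of all counts. Over all tested genes, TMM gave 2367 lower and 3194 higher, and library totals 559 lower and 5955 higher. Every fold change below is on the TMM scale.

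**Figure D1:**
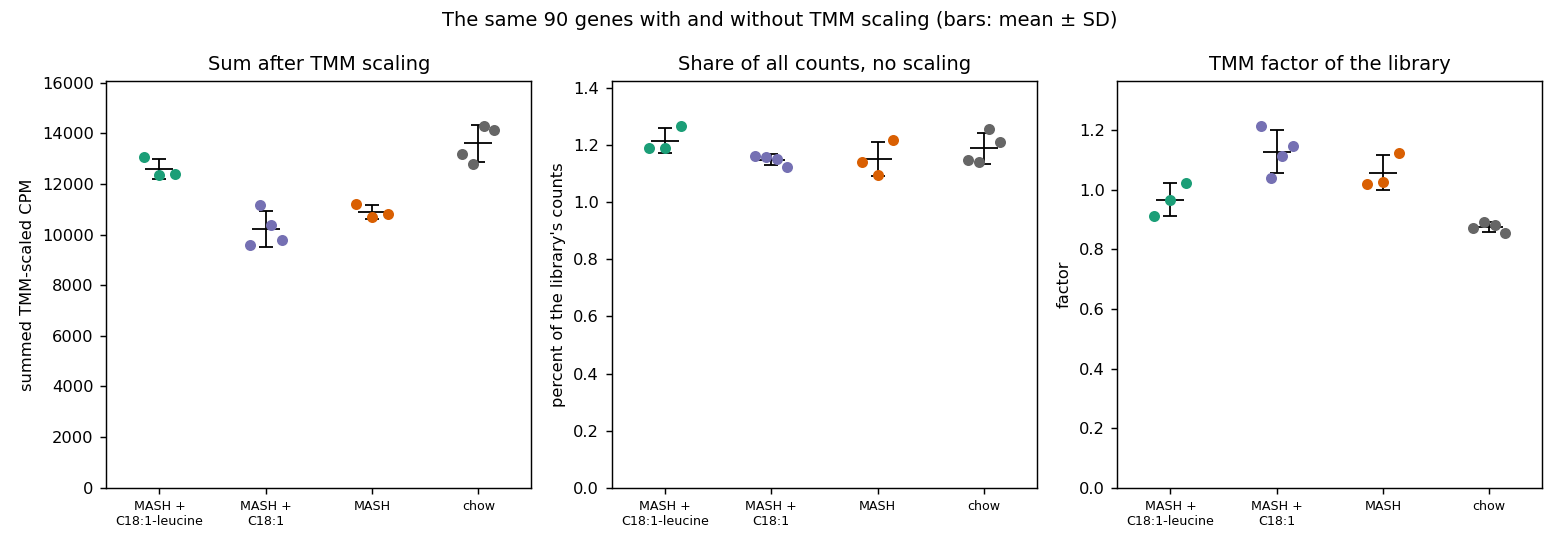
Sum of the 90 respiratory chain genes after TMM scaling (left, CPM), their share of all counts without scaling (middle, percent) and the TMM factor (right), for each liver library by group, with mean and SD. After TMM scaling the MASH libraries (10679 to 11193 CPM) lie below the chow libraries (12805 to 14281 CPM), whereas as plain shares of all counts MASH and chow overlap. The C18:1-leucine shares (1.19 to 1.27%) lie above the C18:1 shares (1.12 to 1.16%).

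**Figure D2:**
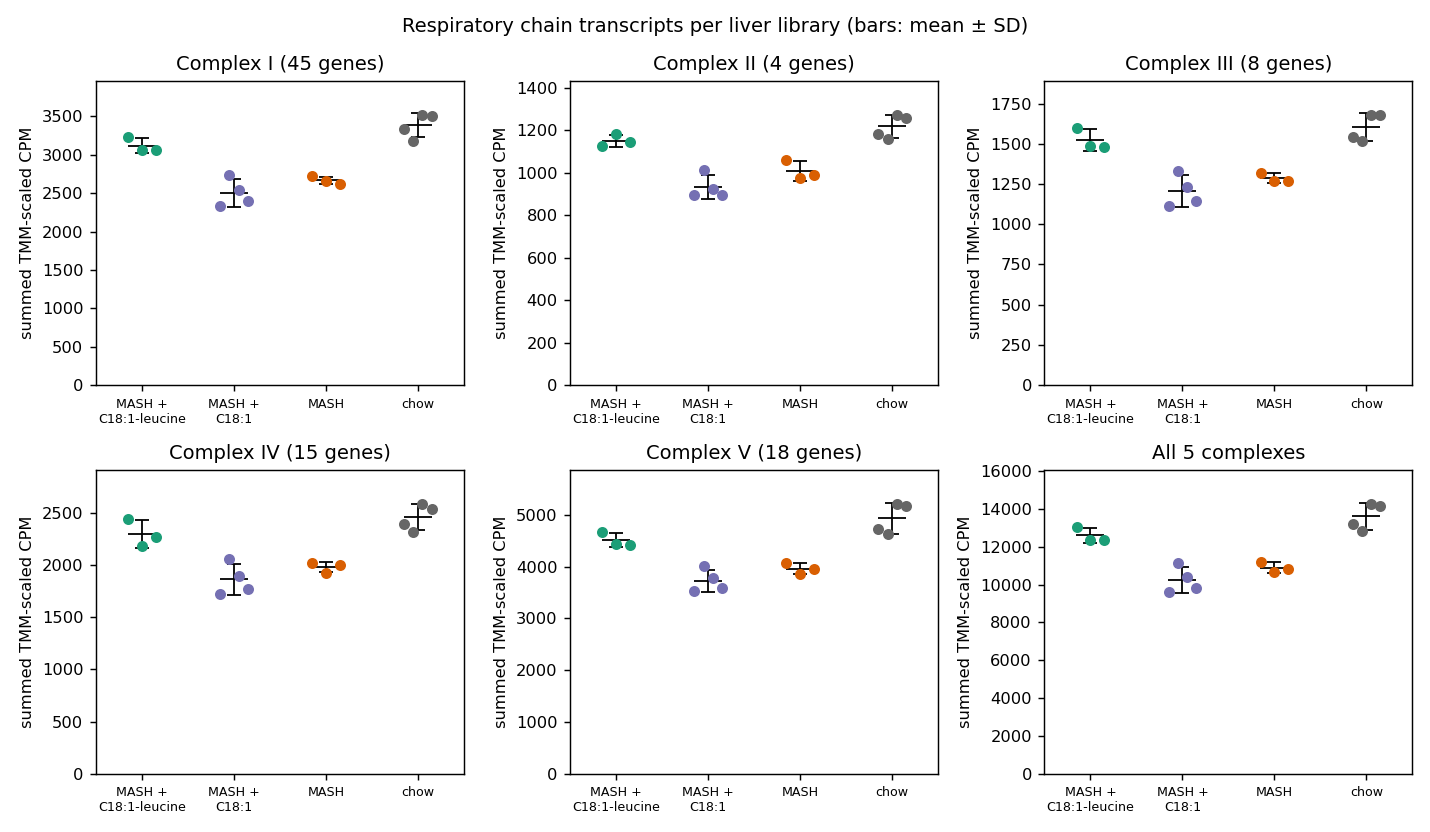
Summed TMM-scaled CPM of the genes of each complex in every liver library by group, with mean and SD. In each complex the C18:1 and MASH libraries lie below the chow libraries on this scale, and the C18:1-leucine libraries lie nearer to chow; without TMM factors the MASH, C18:1 and chow levels overlap far more.

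Markers of liver cell types moved with the same contrast. Summed hepatocyte markers (19 genes) were 70099.5 to 82309.5 CPM in MASH livers, against 111090 to 141402 CPM in chow livers. Of the 19, 17 fell (11 without TMM factors), where 15% of all tested genes fell. Macrophage markers (15 genes) summed to 1083 to 1194 CPM in MASH livers, against 352 to 559.6 CPM in chow livers, with 11 of 15 higher. Stellate cell and fibroblast markers (12 genes) summed to 466 to 947 CPM in MASH livers, against 194 to 266 CPM in chow livers, with 10 of 12 higher. Cholangiocyte markers (12 genes) summed to 91.3 to 411 CPM in MASH livers, against 50.2 to 70.01 CPM in chow livers, with 3 of 12 higher, a share near the 20.2% of all tested genes that rose, and in chow livers Sprr1a was at 0. The part of these shifts in the respiratory chain result was not tested. In bulk tissue, fewer hepatocytes and less RNA per hepatocyte cannot be told apart.

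In complex I, the NADH dehydrogenase that is the main entry point for electrons, 36 of 45 genes fell in MASH livers and none rose. All 7 genes of the catalytic core fell (median -0.43), as did 25 of 29 accessory subunit genes (median -0.32). The gene copy Ndufb4c, annotated as a processed pseudogene, fell too. Ndufs3, a core subunit near the quinone site, had 81.1, 74.7 and 79.7 CPM in MASH livers, against 106, 101, 115 and 115 CPM in chow livers. Its log2 fold change was -0.48 ± 0.072 (SE, edgeR, adjusted p = 0.000328). The iron-sulfur core subunit gene Ndufs8 had 31.5, 35.8 and 36.4 CPM in MASH livers, against 48.8, 46.3, 48.1 and 45.3 CPM in chow livers (-0.45 ± 0.084, edgeR adjusted p = 0.00143). For each of these core genes the highest MASH library lay below the lowest chow library.

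The steepest falls of complex I were in accessory subunits of its membrane arm. Ndufb9 had 161, 144 and 146 CPM in MASH livers, against 216, 205, 243 and 229 CPM in chow livers (-0.57 ± 0.093, edgeR adjusted p = 0.00056). The X-linked Ndufb11 had 86.03, 81.8 and 81.5 CPM in MASH livers, against 128, 114, 123 and 125 CPM in chow livers (-0.56 ± 0.092, edgeR adjusted p = 0.000595). Ndufb5 had 63.1, 55.3 and 57.6 CPM in MASH livers, against 81.6, 83.6, 85.05 and 88.2 CPM in chow livers (-0.53 ± 0.083, edgeR adjusted p = 0.000424). The groups did not overlap for any of the 3. Ndufb10, another membrane arm subunit, had 67.2, 67.2 and 63.1 CPM in MASH livers, against 82.7, 79.4, 91.6 and 95.3 CPM in chow livers (-0.41 ± 0.076, edgeR adjusted p = 0.00141). Ndufa6, a subunit that docks the mitochondrial acyl carrier protein, had 94.9, 93.6 and 107 CPM in MASH livers, against 113, 123, 131 and 133 CPM in chow livers (-0.34 ± 0.084, edgeR adjusted p = 0.0072). Both were again separated between the groups. Ndufa10 and Ndufa8 were at the other end, with log2 fold changes of -0.063 ± 0.065 and -0.052 ± 0.073 that did not pass the test, like those of Ndufb7 and Ndufs5.

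The assembly factors of complex I help to build the enzyme without staying in it. Of the 8 Ndufaf genes, 3 fell (Ndufaf1, Ndufaf2 and Ndufaf6) and 5 did not pass the test, with a median of -0.26 over the 8. Ndufaf1 had 21.6, 18.2 and 21.3 CPM in MASH livers, against 25.4, 25.6, 24.6 and 25.3 CPM in chow livers (-0.31 ± 0.073, edgeR adjusted p = 0.00572). Its MASH libraries were all below its chow libraries. Ndufaf6 had 7.14, 7.80 and 7.41 CPM in MASH livers, against 8.72, 10.4, 9.54 and 10.95 CPM in chow livers (-0.41 ± 0.13, edgeR adjusted p = 0.0241). Whether assembly factors differ from subunits was not tested.

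All 4 genes of complex II, succinate dehydrogenase, fell in MASH livers. Sdhb, the iron-sulfur subunit, had 133, 111 and 124 CPM in MASH livers, against 155, 153, 185 and 182 CPM in chow livers (-0.46 ± 0.11, edgeR adjusted p = 0.00516). Of the membrane anchors, Sdhd had 167, 145 and 151 CPM in MASH livers, against 195, 196, 217 and 211 CPM in chow livers (-0.41 ± 0.078, edgeR adjusted p = 0.00166). The other anchor gene, Sdhc, had 144, 139 and 132 CPM in MASH livers, against 157, 155, 165 and 159.6 CPM in chow livers (-0.20 ± 0.064, edgeR adjusted p = 0.0279), and without TMM factors its sign turned (0.074). All 3 were separated between the groups. The flavoprotein gene Sdha, the most abundant of the 4 with 593 ± 20.4 CPM in MASH livers and 686 ± 24.9 CPM in chow livers (SD, n = 3 and 4), had a log2 fold change of -0.21 ± 0.077.

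In complex III, the cytochrome bc1 complex, 7 of 8 genes fell and Uqcrq did not pass the test (-0.22 ± 0.09, edgeR adjusted p = 0.0701). The hinge protein gene Uqcrh had 115, 106 and 115 CPM in MASH livers, against 154, 149.96, 164 and 163 CPM in chow livers (-0.49 ± 0.088, edgeR adjusted p = 0.00106). Uqcrb, a small subunit on the matrix side, had 87.9, 81.1 and 88.2 CPM in MASH livers, against 107, 105, 119.5 and 122 CPM in chow livers (-0.41 ± 0.089, edgeR adjusted p = 0.00368). The Rieske iron-sulfur protein gene Uqcrfs1 had 188, 174 and 166 CPM in MASH livers, against 219.8, 212, 243 and 234 CPM in chow livers (-0.37 ± 0.082, edgeR adjusted p = 0.00407). In each of the 3 the groups were apart.

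In complex IV, cytochrome c oxidase, all 10 genes of the widely expressed subunits fell, with a median of -0.31. Cox5b, a zinc-binding subunit on the matrix side, had 113, 116 and 112 CPM in MASH livers, against 146, 134, 152 and 148 CPM in chow livers (-0.36 ± 0.075, edgeR adjusted p = 0.00306). The X-linked Cox7b had 103, 102 and 113 CPM in MASH livers, against 133, 131, 159 and 151 CPM in chow livers (-0.43 ± 0.10, edgeR adjusted p = 0.00491). The small membrane subunit gene Cox6c had 188, 173 and 197 CPM in MASH livers, against 226, 226, 263 and 245 CPM in chow livers (-0.37 ± 0.088, edgeR adjusted p = 0.00593). No MASH library reached the chow range for these genes.

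Several subunits of complex IV exist as a widely expressed form and a form restricted to other tissues, and the liver libraries held almost only the widely expressed form. Cox4i1 had 433, 422 and 393 CPM in MASH livers, against 486, 496, 548 and 526 CPM in chow livers (-0.30 ± 0.087, edgeR adjusted p = 0.0158), whereas its lung form Cox4i2 had 0 to 21 counts in any library. Cox6a1 had 179, 175 and 165 CPM in MASH livers, against 204, 185, 209 and 197 CPM in chow livers (-0.20 ± 0.069, edgeR adjusted p = 0.0376, 0.072 without TMM factors), and the heart and muscle form Cox6a2 0 to 5 counts. Both ubiquitous forms were separated between the groups. Cox8a had 141, 138 and 137 CPM in MASH livers, against 165, 154, 169.6 and 169 CPM in chow livers (-0.25 ± 0.081, edgeR adjusted p = 0.0294, 0.026 without TMM factors), beside 0 to 13 counts of the muscle form Cox8b. Cox6b1 had 144, 139.5 and 138 CPM in MASH livers, against 179, 158, 168 and 173 CPM in chow livers (-0.27 ± 0.079, edgeR adjusted p = 0.0181, 0.004 without TMM factors). Its testis form Cox6b2 had 0.207, 0.275 and 0.225 CPM in MASH livers, against 0.317, 0.326, 0.302 and 0.471 CPM in chow livers, and the log2 fold change of -0.58 ± 0.42 did not pass the test (edgeR adjusted p = 0.296). The large point estimate of Cox6b2 thus carries a large error. Cox7a2 had 105, 95.7 and 109 CPM in MASH livers, against 128, 119, 133 and 131 CPM in chow livers (-0.31 ± 0.08, edgeR adjusted p = 0.00934). Its muscle form Cox7a1 had 0.87, 1.10 and 1.06 CPM in MASH livers, against 0.72, 1.16, 0.78 and 0.942 CPM in chow livers, with overlapping groups (0.17 ± 0.28, edgeR adjusted p = 0.663). Of the testis forms, Cox7b2 had 0 to 1 count and Cox8c had 0 counts in every library. A count of 0 allows up to 3 counts per library. Striated muscle markers were near 0, with 1 of 12 genes above the count minimum.

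Ndufa4, once assigned to complex I and now to complex IV, had 208, 197 and 223 CPM in MASH livers, against 252, 252, 282 and 279 CPM in chow livers (-0.35 ± 0.09, edgeR adjusted p = 0.00951). Cox7a2l is a gene linked to supercomplexes of complexes III and IV, and whether its protein forms them in these mice was not measured. It averaged 97.01 ± 5.88 CPM in MASH livers and 112 ± 7.05 CPM in chow livers (SD, n = 3 and 4). The log2 fold change was -0.21 ± 0.069 (edgeR adjusted p = 0.0346), and 0.071 without TMM factors. Both genes had all MASH libraries below all chow libraries. The hypoxia-inducible paralog Ndufa4l2 was scarce and ran the other way, with 0.849, 1.35 and 1.58 CPM in MASH livers, against 0.806, 0.8, 1.03 and 0.913 CPM in chow livers. MASH replicate 2 lay within the chow range for Ndufa4l2, and the log2 fold change of 0.50 ± 0.26 did not pass the test (edgeR adjusted p = 0.143).

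In complex V, the ATP synthase, 16 of 18 genes fell in MASH livers, 1 rose and Atp5mj did not pass the test. Atp5f1b, which encodes the catalytic subunit of the head, was at 1143 ± 42.7 CPM in MASH livers and 1424 ± 87.9 CPM in chow livers (SD, n = 3 and 4). All 5 genes of the head fell, all 4 of the peripheral stalk and all 3 of the c ring. Atp5pd, of the peripheral stalk, had 146, 136 and 139 CPM in MASH livers, against 186, 186, 204 and 205 CPM in chow livers (-0.48 ± 0.092, edgeR adjusted p = 0.00182). Atp5pb, the stalk subunit that spans the membrane, had 262, 228 and 250.05 CPM in MASH livers, against 313, 293, 327 and 324 CPM in chow livers (-0.35 ± 0.075, edgeR adjusted p = 0.00321). Atp5f1c, which encodes the rotating shaft of the head, had 169, 148 and 169 CPM in MASH livers, against 189.7, 193, 213 and 224 CPM in chow livers (-0.34 ± 0.082, edgeR adjusted p = 0.00639). These stalk and shaft genes were apart between the groups in every library. The small membrane subunit gene Atp5mk had 54.5, 50.8 and 56.3 CPM in MASH livers, against 66.6, 69.9, 82.8 and 78.8 CPM in chow livers (-0.47 ± 0.093, edgeR adjusted p = 0.0021). Atp5mf, another of the membrane sector, had 159.9, 145 and 154 CPM in MASH livers, against 207, 196, 206 and 212 CPM in chow livers (-0.43 ± 0.09, edgeR adjusted p = 0.00311). Both again showed no overlap.

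The proton-carrying c ring is made from 3 genes that encode the same mature protein. Atp5mc1 had 86.9, 106 and 83.6 CPM in MASH livers, against 133, 125, 128 and 135 CPM in chow livers (-0.50 ± 0.14, edgeR adjusted p = 0.0122). Atp5mc2 had 81.1, 81.1 and 81.1 CPM in MASH livers, against 96.03, 95.4, 95.9 and 102 CPM in chow livers (-0.26 ± 0.068, edgeR adjusted p = 0.0095, 0.012 without TMM factors). Atp5mc3, the most abundant of the c ring genes in CPM, had 284, 277 and 264 CPM in MASH livers, against 302, 315, 379 and 374 CPM in chow livers (-0.32 ± 0.093, edgeR adjusted p = 0.0178). All MASH libraries lay below all chow libraries for the 3 genes.

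Atp5if1, which encodes the inhibitor that keeps ATP synthase from running backwards and splitting ATP, was the gene that rose. It had 10.9, 13.02 and 17.7 CPM in MASH livers, against 10.1, 9.99, 8.48 and 10.5 CPM in chow livers, with no overlap between the groups. The log2 fold change was 0.51 ± 0.16 (edgeR adjusted p = 0.0253), and it was 0.80 without TMM factors. The rise rests partly on MASH replicate 4: without that library it was 0.30 (edgeR adjusted p = 0.171). Without chow replicate 3 it was 0.45 (edgeR adjusted p = 0.0694), and over the alternatives the adjusted p ranged from 0.00574 to 0.171.

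**Figure D3:**
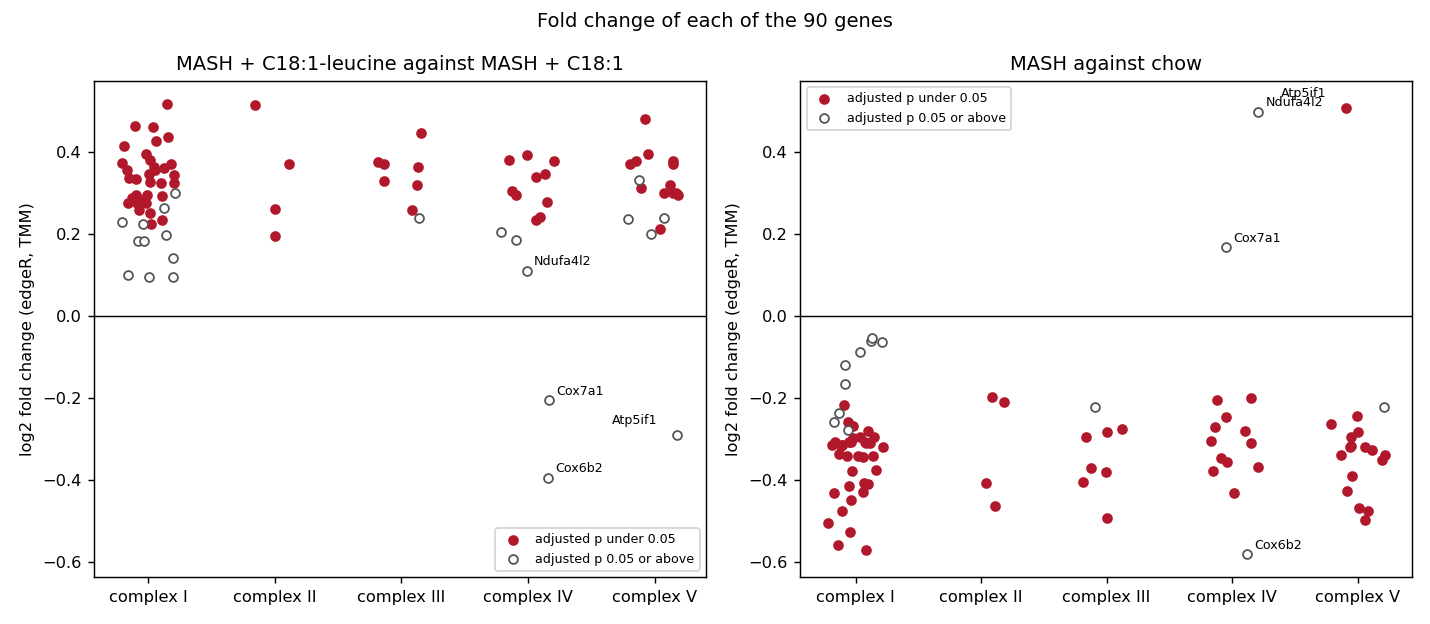
Log2 fold change (edgeR, TMM scaling) of each of the 90 genes, by complex, in C18:1-leucine against C18:1 (left) and in MASH against chow (right); filled points passed the adjusted threshold. In MASH nearly all points lie between 0 and -0.58 apart from Atp5if1, Ndufa4l2 and Cox7a1, and without TMM factors 24 of the 90 lie above 0; on the left 87 of the 90 lie above 0.

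Counted against the length of the gene's exons, the structural subunits also stood in a wide range. Per kilobase the chow means reached 338 CPM for Atp5f1a, 336 CPM for Atp5f1b and 332 CPM for Cox4i1, and among assembly factors they lay at or below 16.8 CPM (Ndufaf1). Ndufa4l2 and Cox6b2 were at 0.811 and 0.319 CPM per kilobase. These lengths are the joined exons of all transcripts of a gene in GENCODE M21 and can overstate the length of genes with many annotated isoforms. Many subunits of the chain have processed pseudogenes, and the handling of reads shared with such copies was not found in the labels. This applies most directly to Ndufb4 (742 to 1122 counts in a library) and its near-identical copy Ndufb4c (1149 to 1854 counts), and to Ndufb11b (0 counts in every library) and Ndufs6b (1 to 9 counts).

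In C18:1-leucine livers respiratory chain transcripts were higher than in C18:1 livers, the compounds differing by the leucine. By edgeR, 68 of the 90 were higher and none was lower, where 7.24% of all tested genes were higher and 8.83% lower. The median log2 fold change over the 90 was 0.30 (-0.016 over all genes), and every C18:1-leucine library lay above every C18:1 library for 73 of the 90 (13.4% of all genes). Summed over the 90, the level was 13061, 12358 and 12377 CPM in C18:1-leucine livers, against 9585, 11151, 10375 and 9796 CPM in C18:1 livers. No sum overlapped. As a plain share of all counts, the 90 genes took 1.19, 1.19 and 1.27% in C18:1-leucine livers, against 1.16, 1.16, 1.15 and 1.12% in C18:1 livers. Without TMM factors 5 of the 90 were higher, with a median of 0.084, while the median of all genes moved to -0.24 and all genes split into 3455 lower and 259 higher (1395 and 1145 with TMM).

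The calls of this comparison depended on the libraries with contradicting labels. With the groups of the treatment tags, 0 of the 90 were called and the median was 0.13, and 0 of all tested genes were called. Without both of these libraries 1 was called and the median was 0.23, where 401 of all tested genes were lower and 115 higher. With only the C18:1-leucine and C18:1 libraries in the fit, 29 were called (1023 lower and 579 higher over all genes). Without the 2 libraries that held pancreatic transcripts 29 were also called (401 lower and 198 higher over all genes). Leaving out C18:1 replicate 1 or 4 left 31 or 32, and leaving out C18:1-leucine replicate 1 or 2 left 25 or 36. The fold change was above 0 for 84 of the 90 with the tags, and for 87 of the 90 in the other 3 fits that left out libraries or groups together.

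By complex, the higher counts in C18:1-leucine against C18:1 were 34 of 45 in complex I, 4 of 4 in complex II, 7 of 8 in complex III, 10 of 15 in complex IV and 13 of 18 in complex V. Complex I again included all 7 core genes, with 23 of 29 accessory and 3 of 8 assembly factor genes. The most certain difference was that of Atp5mk, with 71.3, 65.6 and 66.9 CPM in C18:1-leucine livers, against 44.6, 55.2, 50.3 and 44.8 CPM in C18:1 livers (0.48 ± 0.092, edgeR adjusted p = 0.00675). Ndufaf1 had 22.3, 25.1 and 24.97 CPM in C18:1-leucine livers, against 18.3, 19.7, 17.9 and 18.6 CPM in C18:1 livers (0.37 ± 0.072, edgeR adjusted p = 0.00707). Ndufb11 had 117, 96.3 and 96.9 CPM in C18:1-leucine livers, against 64.8, 80.6, 81.4 and 72.8 CPM in C18:1 livers (0.47 ± 0.091, edgeR adjusted p = 0.00741). All C18:1-leucine libraries were above all C18:1 libraries for these genes. Ndufa6 had 126, 112 and 129 CPM in C18:1-leucine livers, against 86.3, 97.4, 95.7 and 85.05 CPM in C18:1 livers (0.43 ± 0.083, edgeR adjusted p = 0.00742). Its groups were likewise apart.

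The other complex I genes described for MASH were mostly apart as well. Ndufs3 had 99.2, 100.2 and 94.9 CPM in C18:1-leucine livers, against 71.6, 84.3, 75.7 and 73.5 CPM in C18:1 livers (0.36 ± 0.071). Ndufb9 had 197, 179 and 173 CPM in C18:1-leucine livers, against 122, 152, 136 and 122 CPM in C18:1 livers (0.46 ± 0.092). Ndufb5 had 75.96, 67.96 and 70.5 CPM in C18:1-leucine livers, against 49.9, 61.99, 52.9 and 49.7 CPM in C18:1 livers (0.41 ± 0.081). These 3 passed the test without overlap. Ndufb10 had 80.7, 85.96 and 77.5 CPM in C18:1-leucine livers, against 58.5, 67.2, 63.9 and 61.97 CPM in C18:1 livers (0.37 ± 0.075). Ndufs8 had 46.4, 43.2 and 39.2 CPM in C18:1-leucine livers, against 33.6, 39.3, 35.1 and 31.9 CPM in C18:1 livers (0.30 ± 0.083), and here C18:1 replicate 2 reached the C18:1-leucine range. Both genes passed the test.

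Of the complex II genes, Sdhb had 159.6, 169.99 and 151 CPM in C18:1-leucine livers, against 103, 132, 112 and 102 CPM in C18:1 livers (0.52 ± 0.11, edgeR adjusted p = 0.00879). Sdhd had 194, 178 and 181 CPM in C18:1-leucine livers, against 131, 153, 146 and 138 CPM in C18:1 livers (0.37 ± 0.077). Sdhc had 154, 153 and 144 CPM in C18:1-leucine livers, against 127, 141, 126 and 129 CPM in C18:1 livers (0.20 ± 0.063), a sign that turned without TMM factors (-0.026). In complex III the pattern was the same in direction. Uqcrb had 108, 103 and 101 CPM in C18:1-leucine livers, against 73.6, 88.998, 72.6 and 68.9 CPM in C18:1 livers (0.45 ± 0.088, edgeR adjusted p = 0.00747). Uqcrh had 152, 124 and 132 CPM in C18:1-leucine livers, against 95.95, 117, 109 and 97.3 CPM in C18:1 livers (0.38 ± 0.087), and Uqcrfs1 had 215, 215 and 197 CPM in C18:1-leucine livers, against 145, 177, 163 and 163 CPM in C18:1 livers (0.37 ± 0.081). None of these complex II and III genes overlapped between the compounds.

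In complex IV, Cox7b had 139.5, 121 and 128 CPM in C18:1-leucine livers, against 90.9, 113, 101 and 88.9 CPM in C18:1 livers (0.39 ± 0.10, edgeR adjusted p = 0.0182). Cox6c had 239, 207 and 224 CPM in C18:1-leucine livers, against 160.1, 187, 178 and 162 CPM in C18:1 livers (0.38 ± 0.087), and Cox5b had 138, 124 and 132 CPM in C18:1-leucine livers, against 101, 123, 112 and 108 CPM in C18:1 livers (0.24 ± 0.074). The compounds were apart for the 3 genes. Cox4i1 had 505, 469.7 and 443 CPM in C18:1-leucine livers, against 350.2, 416, 398 and 365 CPM in C18:1 livers (0.31 ± 0.086), Cox6a1 had 195, 188 and 188 CPM in C18:1-leucine livers, against 154, 175, 164 and 156 CPM in C18:1 livers (0.23 ± 0.069) and Cox7a2 had 125, 116 and 130.4 CPM in C18:1-leucine livers, against 91.7, 109, 100.2 and 91.2 CPM in C18:1 livers (0.34 ± 0.079). Ndufa4 had 265, 235 and 244 CPM in C18:1-leucine livers, against 172, 212, 198 and 179 CPM in C18:1 livers (0.38 ± 0.089), and Cox7a2l had 123, 109 and 114 CPM in C18:1-leucine livers, against 92.8, 96.8, 95.4 and 95.6 CPM in C18:1 livers (0.28 ± 0.069). These 5 passed the test with no overlap. Cox6b1 had 170.3, 148 and 162 CPM in C18:1-leucine livers, against 129, 155, 141 and 131 CPM in C18:1 livers (0.21 ± 0.079, edgeR adjusted p = 0.0901), and Cox8a had 169, 141 and 159.7 CPM in C18:1-leucine livers, against 128, 154, 135 and 133 CPM in C18:1 livers (0.19 ± 0.08, edgeR adjusted p = 0.127). Both overlapped and missed the threshold. The scarce forms did not pass either: Cox6b2 had 0.279, 0.207 and 0.38 CPM in C18:1-leucine livers, against 0.361, 0.142, 0.377 and 0.631 CPM in C18:1 livers, and Cox7a1 had 1.03, 0.674 and 1.01 CPM in C18:1-leucine livers, against 1.20, 0.796, 1.44 and 0.718 CPM in C18:1 livers.

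In complex V, Atp5pd had 183, 159 and 154 CPM in C18:1-leucine livers, against 113, 144, 133 and 119 CPM in C18:1 livers (0.38 ± 0.091, edgeR adjusted p = 0.0158). Atp5mf had 205, 171 and 177 CPM in C18:1-leucine livers, against 128, 158, 151 and 130.1 CPM in C18:1 livers (0.38 ± 0.089). Atp5pb had 283, 281 and 283 CPM in C18:1-leucine livers, against 207, 235, 216 and 214 CPM in C18:1 livers (0.37 ± 0.074), and Atp5f1c had 185, 189 and 192 CPM in C18:1-leucine livers, against 139.9, 157, 139.8 and 136 CPM in C18:1 livers (0.40 ± 0.081). These 4 genes were apart and passed the test. Of the c ring genes, Atp5mc3 had 325, 309.8 and 297 CPM in C18:1-leucine livers, against 239.9, 273, 256 and 238 CPM in C18:1 livers (0.30 ± 0.092) and Atp5mc2 had 100.4, 90.4 and 92.4 CPM in C18:1-leucine livers, against 78.1, 89.8, 82.8 and 75.4 CPM in C18:1 livers (0.21 ± 0.067, -0.009 without TMM factors). Atp5mc1 had 125, 101 and 92.2 CPM in C18:1-leucine livers, against 67.7, 96.99, 95.2 and 77.2 CPM in C18:1 livers (0.33 ± 0.13, edgeR adjusted p = 0.107), where the compounds overlapped and the test was missed. Atp5if1 had 12.5, 11.1 and 14.8 CPM in C18:1-leucine livers, against 17.4, 13.1, 17.5 and 14.6 CPM in C18:1 livers, with overlap and a log2 fold change of -0.29 ± 0.16 (edgeR adjusted p = 0.235, interval -0.64 to 0.055). Ndufa4l2 had 1.72, 1.71 and 1.27 CPM in C18:1-leucine livers, against 1.84, 1.28, 1.60 and 1.07 CPM in C18:1 livers, an overlap with a difference of 0.11 ± 0.25 (interval -0.42 to 0.64). A missed threshold does not show that the compounds act alike on these genes.

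**Figure D4:**
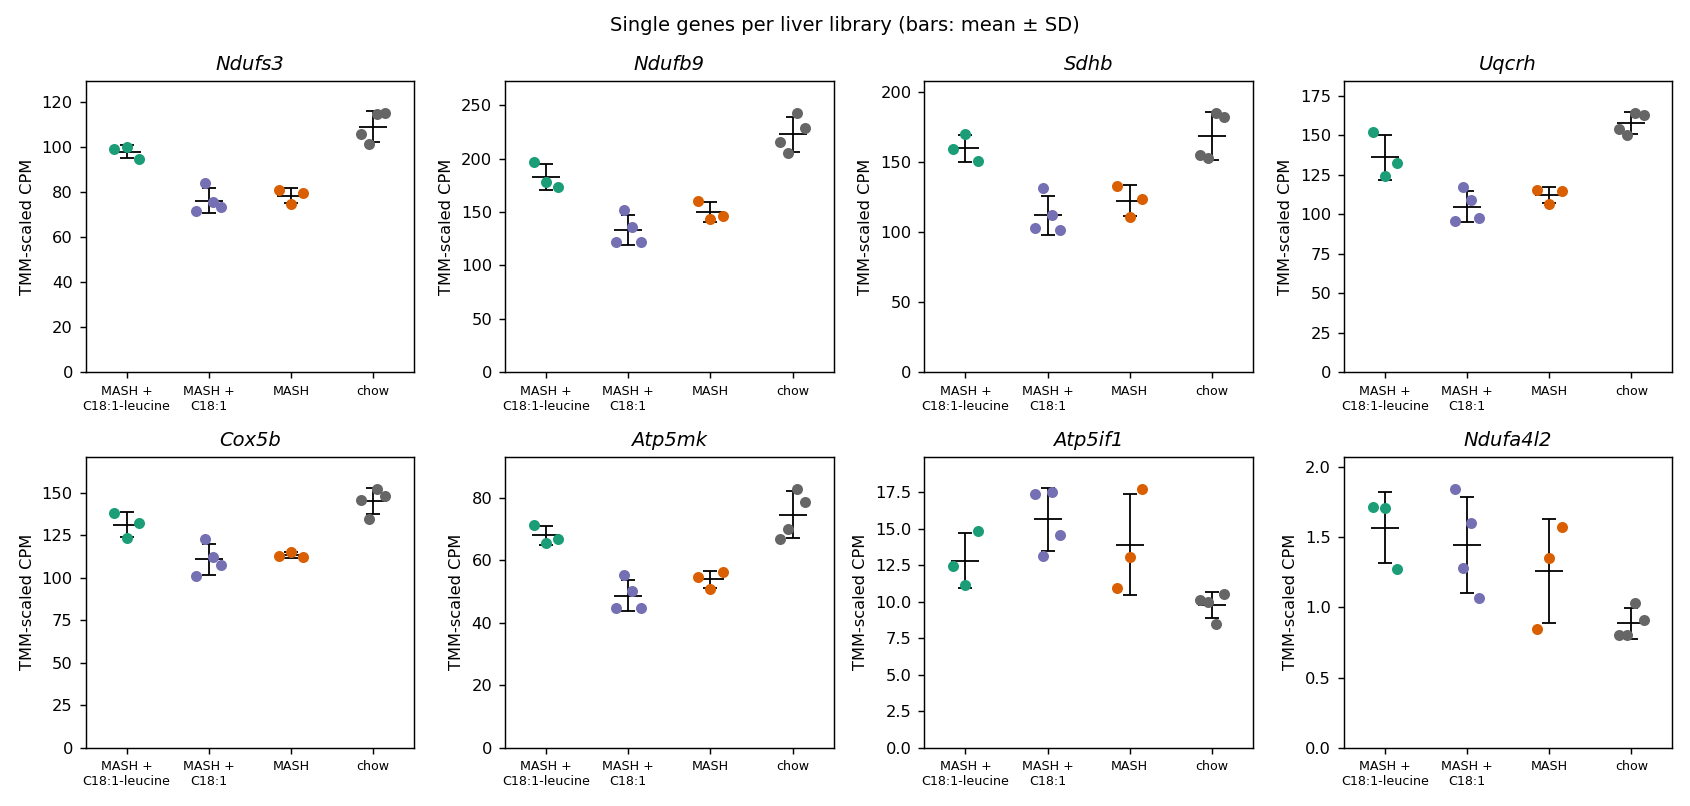
TMM-scaled CPM of 8 single genes in every liver library by group, with mean and SD. Ndufs3, Ndufb9, Sdhb, Uqcrh, Cox5b and Atp5mk are lower in MASH and C18:1 livers than in C18:1-leucine and chow livers on this scale, while Atp5if1 lies lowest in chow livers and Ndufa4l2 is scarce in all groups.

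The comparisons of MASH with chow and of C18:1-leucine with C18:1 have no library in common, although they were fitted in 1 model. Of the 75 genes that fell in the first, 65 were higher in the second, which is 86.7% of the 75 and 95.6% of the 68. Over all tested genes, 850 genes did both, 35.9% of the 2367 that fell and 74.2% of the 1145 that were higher. The 65 rest on the 68 calls of the second comparison, which became 0 with the groups of the treatment tags. Those calls became 1 without both libraries with contradicting labels and 5 without TMM factors. The 10 that fell in MASH without passing in the second comparison were Ndufa3, Ndufa12, Ndufab1, Ndufv3, Uqcr10, Cox6b1, Cox8a, Atp5f1a, Atp5f1b and Atp5mc1. Ndufa10, Ndufb7 and Uqcrq passed only in the second, and whether their effects differ between the comparisons was not tested.

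Against MASH, edgeR called no gene of the chain for either compound. With the groups of the treatment tags, or without both libraries with contradicting labels, edgeR called 0 of all tested genes in both comparisons. The other values of these comparisons follow the titles. In C18:1 against MASH, 0 of the 90 were called in either direction (0.0% of all genes), with a median of -0.093 and 81 below 0. At an unadjusted p under 0.05 edgeR gave 2 of the 90 and 6.16% of all genes, and DESeq2 and limma voom also called 0. The smallest p values were those of Atp5pb, Atp5f1c and Uqcrb, with log2 fold changes of -0.18 ± 0.074, -0.18 ± 0.081 and -0.17 ± 0.088 (edgeR adjusted p = 0.774 for all 3). In C18:1-leucine against MASH, 0 of the 90 were called (0.0633% of all genes lower and 0.00633% higher). The median was 0.22 with 88 above 0, and every C18:1-leucine library lay above every MASH library for 73 of the 90, against 10.2% of all genes. The median of all genes was -0.013, and -0.14 without TMM factors. As a plain share of all counts, the 90 genes took 1.19, 1.19 and 1.27% in C18:1-leucine livers. In MASH livers they took 1.14, 1.10 and 1.22%, so these groups overlap. At an unadjusted p under 0.05 edgeR gave 60 of the 90 and 17.9% of all genes. DESeq2 called 23 of the 90 and limma voom 3, all higher, where they called 415 and 215 of all 15807 tested genes higher. Ndufs3, Ndufb10 and Ndufs8 had the smallest p, with log2 fold changes of 0.32 ± 0.077, 0.31 ± 0.081 and 0.31 ± 0.089 (edgeR adjusted p = 0.0777, 0.0982 and 0.109).

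Set against chow, the compounds gave different counts. In C18:1 against chow, 80 of the 90 were lower and 2 higher (24.7% and 27.7% of all genes), with a median of -0.40. Without TMM factors 15 were lower and 7 higher, while all genes split into 854 lower and 8206 higher. The 2 higher on the TMM scale were Atp5if1 (0.68 ± 0.15, edgeR adjusted p = 0.00203) and Ndufa4l2 (0.70 ± 0.24, edgeR adjusted p = 0.0239). With the groups of the treatment tags, 56 of the 90 were called in C18:1 against chow, 1 of them higher. The median was then -0.29, and over all genes 2469 were lower and 3440 higher. In C18:1-leucine against chow, 0 were lower and 1 was higher (4.29% and 10% of all genes), with a median of -0.10 and 79 below 0. The median of all genes was 0.006, and 0.15 without TMM factors. As a plain share of all counts, the 90 genes took 1.19, 1.19 and 1.27% in C18:1-leucine livers. In chow livers they took 1.15, 1.14, 1.26 and 1.21%, so these groups overlap. DESeq2 called 5 lower and limma voom 15, where they called 1237 and 1252 of all 15807 tested genes lower. An unadjusted p under 0.05 by edgeR was reached by 17 of the 90 and 31.3% of all genes. The 1 higher was Ndufa4l2 (0.82 ± 0.25, edgeR adjusted p = 0.047), a call that was lost in most alternatives. Ndufb9 remained at -0.29 ± 0.093 in C18:1-leucine livers (edgeR adjusted p = 0.0543). The 2 comparisons share the chow libraries, so their values are not independent.

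**Figure D5:**
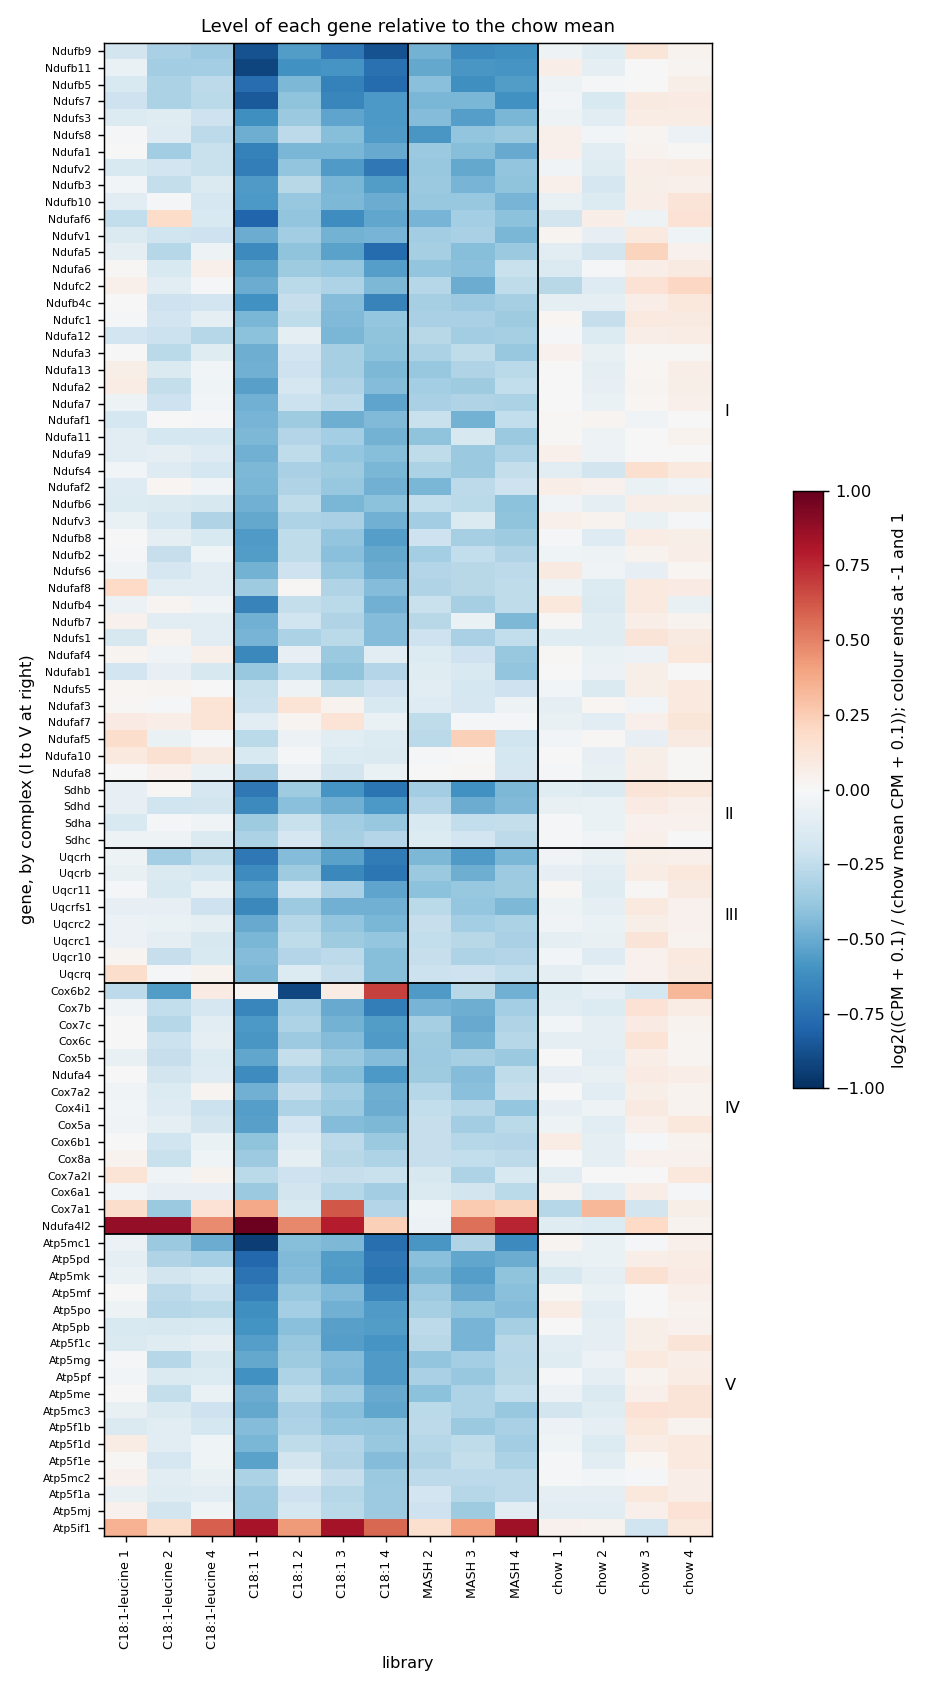
Level of 89 of the 90 genes in each of the 14 libraries relative to its chow mean (colour, log2 of TMM-scaled CPM, ending at -1 and 1), ordered by complex. The C18:1 and MASH columns are below the chow mean for most genes on this scale, the C18:1-leucine columns less so, and Atp5if1 and, except in MASH replicate 2, Ndufa4l2 stand above it in the MASH diet groups; without TMM factors the falls shrink to a median of -0.04 in MASH.

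In the per-library view, the median log2 ratio of the 90 genes to their chow mean was -0.034, -0.14 and -0.12 in C18:1-leucine libraries, -0.49, -0.26, -0.38 and -0.47 in C18:1 libraries and -0.29, -0.33 and -0.32 in MASH libraries, against -0.03, -0.091, 0.056 and 0.058 in chow libraries. C18:1 replicate 2 was the highest of its group and lay above all MASH libraries. Between 62 and 79 of the 90 genes lay below their chow mean in the C18:1-leucine libraries, between 84 and 87 in the C18:1 libraries and between 85 and 89 in the MASH libraries, against 8 to 81 in the chow libraries themselves. Chow replicates 1 and 2 lay below that mean for most of the genes and chow replicates 3 and 4 above it.

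Cell type markers moved with the comparison of the compounds too. Hepatocyte markers summed to 81508 to 111332 CPM in C18:1-leucine livers, against 56018 to 74091 CPM in C18:1 livers, with 7 of 19 higher. Macrophage markers summed to 512 to 817 CPM in C18:1-leucine livers, against 1006 to 1621 CPM in C18:1 livers, with 9 of 15 lower. Erythroid markers summed to 624 to 1262 CPM in C18:1-leucine livers, against 264 to 752 CPM in C18:1 livers, with 7 of 7 higher. Over all tested genes, 7.24% were higher and 8.83% lower in this comparison. The part of these markers in the result was not tested.

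Genes of the same pathway outside the symbol rule were read from fixed lists. The 13 subunits encoded by mitochondrial DNA, the partners of the nuclear subunits, fell in MASH livers for 12 of 13 (15% of all tested genes), with a median of -0.53. The largest were ND6 (-0.68 ± 0.14, adjusted p = 0.00283) and ND4 (-0.67 ± 0.15, adjusted p = 0.00354), both of complex I, by edgeR. Without TMM factors 4 of the 13 fell, with a median of -0.25. Their summed level was 32969 to 40189 CPM in MASH livers, against 43493 to 58469.5 CPM in chow livers. Between the compounds, C18:1-leucine against C18:1, 5 of the 13 were higher (7.24% of all tested genes), with a median of 0.44. Without TMM factors none of the 13 was called and the median was 0.22. Cyc1, the nuclear heme subunit of complex III, fell in MASH (-0.38 ± 0.09, adjusted p = 0.00583, edgeR), and cytochrome c (Cycs) did not pass the test (-0.19 ± 0.10, adjusted p = 0.152, edgeR).

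Assembly factors insert cofactors and join subunits, and coenzyme Q carries electrons from complexes I and II to complex III. In MASH against chow, 2 of 7 further complex I assembly genes fell, which were Foxred1 (-0.52 ± 0.072, adjusted p = 0.000174, edgeR) and Ecsit (-0.45 ± 0.10, adjusted p = 0.00362, edgeR). Of 33 assembly genes of complexes II to V, 6 fell and 1 rose, a share of lower genes near the 15% of all tested genes, with the smallest p for Surf1 (-0.34 ± 0.06, adjusted p = 0.000868, edgeR) and Uqcc3 (-0.34 ± 0.068, adjusted p = 0.00227, edgeR), which serve complexes IV and III. Of 13 genes of coenzyme Q synthesis, 3 fell and 1 rose, where 15% of all tested genes fell and 20.2% rose. The smallest p were those of Coq5, a methyltransferase of the pathway (-0.27 ± 0.063, adjusted p = 0.0049, edgeR), and Coq10b, a coenzyme Q binding protein (-0.87 ± 0.20, adjusted p = 0.00542, edgeR). For C18:1-leucine against C18:1, 4 of 7, 7 of 33 and 4 of 13 genes of these lists were higher and none was lower. Over all tested genes, 7.24% were higher and 8.83% lower. Without TMM factors the medians of the 3 lists in MASH against chow were above 0 (0.13, 0.15 and 0.12), with 1, 0 and 1 lower and 2, 7 and 5 higher, so their direction rests on the scaling. For C18:1-leucine against C18:1 the calls without TMM factors were 0, 0 and 1 higher, with medians of 0.003, -0.074 and -0.094.

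Of 17 regulators of respiratory chain genes, 9 fell in MASH livers and none rose, where 15% of all tested genes fell and 20.2% rose. Tfb1m (-0.58 ± 0.12, adjusted p = 0.00292, edgeR) and Tfb2m (-0.45 ± 0.10, adjusted p = 0.00364, edgeR) had the smallest p. The coactivator genes Ppargc1a and Ppargc1b, Gabpa, Yy1 and Tfam were among the 9, whereas Nrf1 was at -0.007 ± 0.10, adjusted p = 0.963 by edgeR. Of the 17, 4 were higher and 1 (Pprc1) lower with C18:1-leucine than with C18:1 (7.24% and 8.83% of all tested genes). Without TMM factors 2 of the 17 fell and 1 rose in MASH livers with a median of 0.016, and the signs of Tfam (0.016) and Yy1 (0.023) turned. For C18:1-leucine against C18:1 none of the 17 was then higher and 1 was lower, with a median of 0.008. Grouping the genes by promoter motif gave like values: in MASH against chow the median was -0.31 over the 37 genes with at least 1 of the 4 motifs and -0.33 over the 38 without. For C18:1-leucine against C18:1 these medians were 0.30 and 0.32.

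Of 13 tricarboxylic acid cycle genes, which feed electrons to complexes I and II, 4 fell and 2 rose in MASH livers (15% and 20.2% of all tested genes). Idh3b (-0.35 ± 0.07, adjusted p = 0.00208, edgeR) and Sucla2 (-0.41 ± 0.09, adjusted p = 0.00401, edgeR) fell with the smallest p, while citrate synthase Cs (0.35 ± 0.13, adjusted p = 0.0481, edgeR) and Suclg2 (0.26 ± 0.072, adjusted p = 0.0145, edgeR) rose. Of 20 other mitochondrial membrane proteins, 13 fell and 2 rose. Tomm22, part of the protein import pore of the outer membrane, fell (-0.32 ± 0.065, adjusted p = 0.0025, edgeR), and the ADP/ATP carrier Slc25a4 rose (0.95 ± 0.21, adjusted p = 0.0042, edgeR). With C18:1-leucine against C18:1, 4 of 13 and 7 of 20 genes of these lists were higher and none was lower (7.24% and 8.83% of all tested genes). Without TMM factors the medians in MASH against chow were above 0 for both lists (0.10 and 0.027), with 1 and 0 genes lower and 4 and 2 higher. For C18:1-leucine against C18:1 they were then -0.017 and -0.008, with 1 lower in each list and 1 and 0 higher.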

How the data were processed

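RNA-seq of 14 mouse liver libraries was used. The deposited values are expected counts for each Ensembl gene, and GRCm38, HTSeq and DESeq2 1.42.1 are named in the submitters' processing notes without a role. Use of strand in counting was not stated there. Fractional values, 5.09% to 5.76% of a library, were rounded. The authors' 6 deposited comparison tables were not used, since no key to their group letters was found.

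Groups follow the titles. Genes with at least 10 counts in at least 3 libraries were fitted over all 14 libraries with edgeR 4.0.16 in R 4.3.3 (TMM, robust quasi-likelihood F test, two-sided), with p adjusted by Benjamini and Hochberg over 15807 genes at a threshold of 0.05. Intervals are 95% intervals from that fit. The procedure was also run on simulated counts with as many genes raised as lowered, which does not test the dependence on TMM scaling described above. CPM was computed from the rounded counts and the TMM-scaled library sizes. Alternatives were other scalings, other filters, DESeq2 1.42.0, limma 3.58.1 voom, a replicate block, other groupings and each library left out.

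Members and lists were chosen with earlier results of these data known. Named genes were the 3 structural genes of each complex with the smallest p in MASH against chow, the 5 with the smallest p in C18:1-leucine against C18:1, the 3 with the smallest p of each compound against MASH, and the 4 largest changes in MASH. Genes called against the majority, the isoform pairs of complex IV, Ndufa4, Ndufa4l2, Cox7a2l and the c ring genes were added. Ndufaf6, Sdha, Atp5f1b, Ndufa10 and other genes given with values outside this rule were chosen after their values were seen. A gene that these rules name is not reported here. Symbols and coordinates came from GENCODE M21, and promoter sequences from RefSeq.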

Additional observations from a re-analysis of the deposited data

Results flagged for a closer look

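Among 86 groups of 4 libraries tested for a library that stands apart, 2 were flagged, where chance flags about 1 in 20. Both concern chow replicate 4. Cox6b2, the testis form of a complex IV subunit, had 0.471 CPM there, against 0.302 to 0.326 CPM in the other 3 chow libraries. Atp5mc2, a c ring gene, had 102 CPM there, against 95.4 to 96.03 CPM in the other 3 chow libraries.

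The compounds set against each other, C18:1-leucine against C18:1, differed for 68 of the 90 genes by edgeR's test of that difference, all 68 higher in C18:1-leucine livers. The median log2 difference was 0.30, and for 73 of the 90 all C18:1-leucine libraries lay above all C18:1 libraries. The count was 0 with the groups of the treatment tags, as it was over all tested genes.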

How the results depend on the processing

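In MASH against chow, 75 genes lower and 1 higher became 7 and 4 with library totals and no TMM factors. The count of higher genes was 0 with limma voom and 2 with the tags, and leaving out single libraries gave 55 to 77 lower and 0 to 2 higher. Without TMM factors the sign turned for Sdhc (0.074), Cox6a1 (0.072), Cox6b1 (0.004), Cox8a (0.026), Cox7a2l (0.071) and Atp5mc2 (0.012). In C18:1-leucine against C18:1, 68 higher became 29 with only these 2 groups, 0 with the tags, 1 without both libraries with contradicting labels, 29 without both libraries with pancreatic transcripts and 5 without TMM factors, where Sdhc (-0.026) and Atp5mc2 (-0.009) turned. Leaving out single libraries gave 25 to 74. In C18:1-leucine against MASH, 0 higher became 23 with DESeq2 and 3 with limma voom (415 and 215 over all genes). In C18:1 against chow, 80 lower and 2 higher became 15 and 7 without TMM factors (854 and 8206 over all genes). With the tags 56 were called, 1 of them higher, and the median was -0.29. Without both libraries with contradicting labels 79 were called, and without both with pancreatic transcripts 81, with 1 higher in each. Single libraries gave 78 to 82 lower and 1 to 2 higher. In C18:1-leucine against chow, 0 lower became 1 with RLE scaling, 5 with DESeq2 and 15 with limma voom (795, 1237 and 1252 over all genes). It became 1 with only the 2 groups and 4 without both libraries with contradicting labels, and single libraries gave 0 to 4. The 1 higher there became 0 with RLE scaling, no filter, the replicate block, the tags, either pair of libraries left out and, among single libraries, in 0 to 1, and 2 without TMM factors. Where a setting leaves out libraries, fewer libraries enter the fit, and otherwise the cause was not tested.

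Same-numbered libraries of different groups did not deviate together: over 18 pairs the correlation of deviations from the group means was -0.217 to 0.411 (median 0.032), with 5 pairs above 0.1. The replicate block gave 70 lower in MASH against chow and 50 higher in C18:1-leucine against C18:1. Other scalings (RLE, upper quartile) kept the median of all genes within 0.1 of 0 in the comparisons with calls. Genes with few counts (Cox6b2, Cox7a1, Ndufa4l2) are limited by depth.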
